A study of Mus musculus with 6 samples.

Results

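Plasminogen activators, the receptor that holds one of them at the cell surface and their inhibitors were read in B16F10, a mouse melanoma line. The members were taken by symbol from the deposited table and were PLAU, PLAT, PLAUR, SERPINE2, SERPINB2 and SERPINF1, so 6 of the 14915 genes of the table, and all 6 were listed. The group named S127A held 3 libraries labelled as B16F10 cells of the genotype ZBTB5-S127A, in which a serine of the zinc finger protein ZBTB5 is replaced by alanine so that it can no longer be phosphorylated. The WT group held 3 libraries labelled as wild-type B16F10 cells. Cells of both groups had been given TNFα, an inflammatory cytokine, while amino acids were limited, so the comparison is between libraries labelled S127A and WT under that treatment and says nothing of how cells respond to TNFα. The labels name neither a clone nor a separate culture for any library, and p-values therefore measure the spread between these libraries, which may be technical.

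Plasminogen is a circulating zymogen that is cut to plasmin, a broad protease that dissolves fibrin and degrades matrix. The urokinase-type activator (PLAU) works mainly while bound to its receptor on the cell surface, and the tissue-type activator (PLAT) works mainly on fibrin. Inhibitors of the serpin family trap the activators or plasmin by a suicide mechanism, and the trapped complexes are taken up through endocytic receptors. In melanoma and other tumours the system has been studied for its part in invasion.

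The labelled cell type was checked first, since it bears on every value below. The 10 melanocyte markers summed to 114 to 123 TPM in the S127A libraries, against 19198 to 19376 TPM in the WT libraries. TPM is a transcript abundance divided by gene length and by the library total. Markers of other cell types were also read. The 10 fibroblast markers summed to 301 to 313 TPM in S127A, against 16.2 to 17.2 TPM in WT, most of it COL1A2 in S127A. POSTN of that list fell, to 0.08, 0.08 and 0.04 TPM in S127A, against 8.25, 6.74 and 8.38 TPM in WT, and LUM and THY1 were listed at 0 in the 3 S127A libraries. The 4 mesothelial markers summed to 375 to 399 TPM in S127A, against 0.15 to 1.13 TPM in WT, nearly all of it MSLN, while WT1, UPK3B and LRRN4 reached no more than 0.18 TPM. A single gene thus made up nearly the whole of the mesothelial sum. The 5 listed immune markers summed to 48.6 to 51.2 TPM in S127A, against 7.20 to 8.28 TPM in WT. Most of it was CD14 in S127A and CD68 in WT, with PTPRC at 0.10 TPM or less in every library. CD68 fell, to 5.16, 4.40 and 4.52 TPM in S127A, against 7.67, 7.02 and 8.22 TPM in WT. The 7 endothelial markers summed to 0.35 to 0.45 TPM in S127A, against 1.05 to 1.76 TPM in WT. The 4 listed epithelial markers summed to 63.4 to 63.8 TPM in S127A, against 0.08 to 0.32 TPM in WT, nearly all of it KRT18. Libraries labelled S127A thus lacked most melanocyte transcripts, against their label as a melanoma line. Whether they hold B16F10 cells could not be settled from TPM per gene, so the S127A substitution and a difference in the cells themselves cannot be told apart in any result below. S127A is used below as the name of these libraries. In bulk RNA, fewer cells of a type and less RNA per cell cannot be told apart.

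Of 10348 genes with a mean of at least 1 TPM, 90.0% passed limma's test at an adjusted p below 0.05, 40.2% higher and 49.8% lower in S127A. PLAUR, PLAT and SERPINF1 reached that mean and were tested, while PLAU, SERPINE2 and SERPINB2 lay below it and were not. All 3 tested members passed, 1 higher and 2 lower, which is no more than the share of all genes gives. Differences are of log2(TPM + 1), S127A minus WT, a scale that understates the change of low genes. The median of all tested genes was −0.12 on it.

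**Figure D1:**
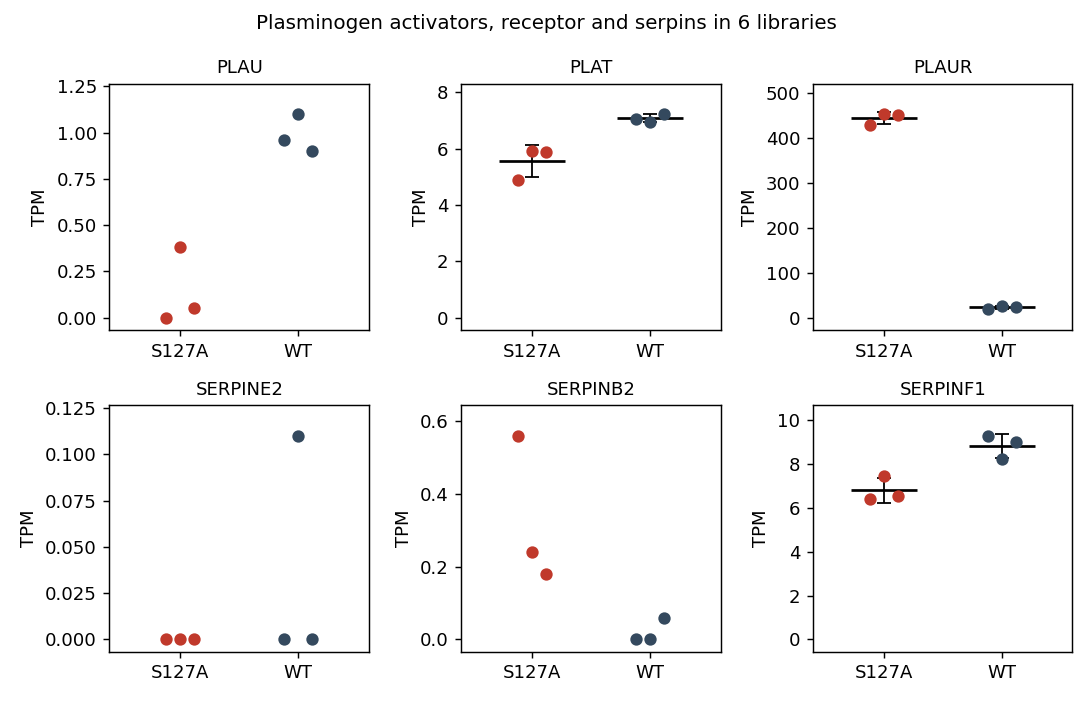
TPM of each member in the 3 S127A libraries (red) and the 3 WT libraries (dark blue), each panel with its own linear axis. Horizontal lines and bars are the mean and SD for the 3 tested members, and the other panels show points alone. PLAUR stands at 428 to 452 TPM in S127A and at 20.1 to 25.0 TPM in WT, and SERPINE2 is above 0 in 1 WT library.

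The urokinase receptor PLAUR, a surface protein anchored by a lipid tail that holds urokinase and also binds vitronectin, was the member that differed most. It lies on chromosome 7 from 24462484 to 24475968 on the plus strand (mm10, ENSMUSG00000046223.10). It stood at 428, 452 and 449 TPM in the S127A libraries, against 20.1, 25.0 and 24.0 TPM in the WT libraries. Every S127A library was far above every WT library, and 90.2% of the tested genes had groups that did not overlap in either direction. The mean was 443 ± 13.2 TPM in S127A and 23.0 ± 2.57 TPM in WT (SD, n = 3 each), a 19.3-fold ratio. The log2 difference was 4.21 (SE 0.0667, 95% interval 4.07 to 4.36, adjusted p = 4.43e-13 by limma), or 4.33 relative to the median of all tested genes. It ranked 194 from the top among the 10348 differences, and its level exceeded 98.3% of the listed genes in S127A and 60.4% in WT.

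The activators stood low in both groups, and neither was higher in S127A. PLAT, the tissue-type activator, lies on chromosome 8 from 22757727 to 22782844 on the plus strand (mm10, ENSMUSG00000031538.6). It stood at 4.89, 5.90 and 5.89 TPM in S127A, against 7.06, 6.94 and 7.22 TPM in WT. The groups did not overlap, as was so for 90.2% of the tested genes, and S127A replicate 1 was the lowest library. PLAT fell to 5.56 ± 0.58 TPM in S127A, against 7.07 ± 0.14 TPM in WT (SD, n = 3 each), with a log2 change of −0.30 (SE 0.0755, 95% interval −0.47 to −0.14, adjusted p = 0.00292 by limma). Relative to the median of all tested genes the difference was −0.19. With quantile normalization, which moved that median by 0.11 to −0.01, the PLAT difference was −0.10 and did not pass (adjusted p = 0.226 by limma, where the 15 alternatives ran from 0.00193 to 0.226). Its place among the listed genes was nearly level, above 43.0% of them in S127A and 43.5% in WT.

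PLAU, the urokinase-type activator that PLAUR binds, lies on chromosome 14 from 20836660 to 20843385 on the plus strand (mm10, ENSMUSG00000021822.3). It was listed at 0, 0.38 and 0.05 TPM in S127A, against 0.96, 1.10 and 0.90 TPM in WT. The S127A libraries were all below the WT libraries, but the mean over the 6 was 0.565 TPM and PLAU was not tested. Among genes below the mean of 1 TPM with any value above 0, 35.8% had groups that did not overlap. The receptor and its ligand therefore lay in opposite order between the groups, with PLAUR higher and PLAU lower in S127A. PLAUR stood at 87.5, 76.6 and 76.2 times the TPM of PLAT within the S127A libraries, against 2.84, 3.60 and 3.32 times within the WT libraries. These ratios do not change with a single scaling factor for each library. Quantile normalization is not such a factor and can change them.

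The serpins of the set were low or listed near 0 in both groups. SERPINF1 encodes a secreted serpin, pigment epithelium-derived factor, which limits vessel growth and is not known to inhibit proteases. It lies on chromosome 11 from 75409769 to 75422701 on the minus strand (mm10, ENSMUSG00000000753.15). It stood at 6.41, 7.46 and 6.52 TPM in S127A, against 9.28, 8.21 and 8.99 TPM in WT. The groups did not overlap, as was so for 90.2% of the tested genes, and the nearest pair was S127A replicate 2 and WT replicate 2. SERPINF1 fell to 6.80 ± 0.577 TPM in S127A, against 8.83 ± 0.553 TPM in WT (SD, n = 3 each). The log2 change was −0.33 (SE 0.0737, 95% interval −0.50 to −0.17, adjusted p = 0.0013 by limma), or −0.22 relative to the median of all tested genes. With quantile normalization the change was −0.18 and still passed (adjusted p = 0.0364). SERPINF1 and PLAT kept close proportions, with SERPINF1 at 1.31, 1.26 and 1.11 times PLAT within the S127A libraries and at 1.31, 1.18 and 1.25 times within the WT libraries, so those ratios overlapped.

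SERPINB2, plasminogen activator inhibitor type 2, which is largely kept inside cells, lies on chromosome 1 from 107511423 to 107535478 on the plus strand (mm10, ENSMUSG00000062345.10). It was listed at 0.56, 0.24 and 0.18 TPM in S127A, against 0, 0 and 0.06 TPM in WT. The S127A libraries were above the WT libraries, all of them below 1 TPM, and no test was made. Groups did not overlap for 35.8% of the genes below the mean of 1 TPM with any value above 0. Its annotated span overlaps Serpinb10 on the same strand, so reads may be shared, and SERPINB10 reached at most 0.07 TPM. SERPINE2, protease nexin-1, which inhibits thrombin, urokinase and plasmin, lies on chromosome 1 from 79794197 to 79861180 on the minus strand (mm10, ENSMUSG00000026249.10). It was listed at 0 in the 3 S127A libraries, against 0, 0.11 and 0 TPM in WT. No difference can be read from a single value above 0, and the depth behind these values is unknown.

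The order of the levels was the same at the top and differed at the bottom. In S127A it ran PLAUR, SERPINF1, PLAT, SERPINB2, PLAU and SERPINE2, and SERPINB2 and PLAU overlapped, as did PLAU and SERPINE2. In WT it ran PLAUR, SERPINF1, PLAT, PLAU, SERPINE2 and SERPINB2, and SERPINE2 and SERPINB2 overlapped. SERPINF1 and PLAT did not overlap in either group.

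**Figure D2:**
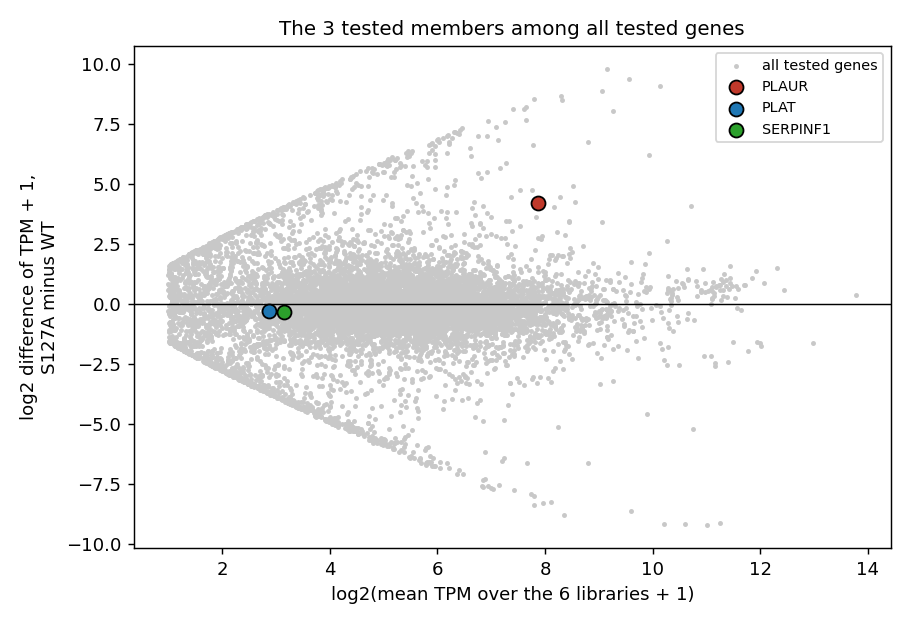
The log2 difference of TPM + 1, S127A minus WT, of each tested gene (grey) against the log2 of its mean TPM + 1 over the 6 libraries, with the 3 tested members marked. PLAUR lies at 4.21 among the genes with large rises, and PLAT at −0.30 and SERPINF1 at −0.33 lie inside the bulk of the genes.

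**Figure D3:**
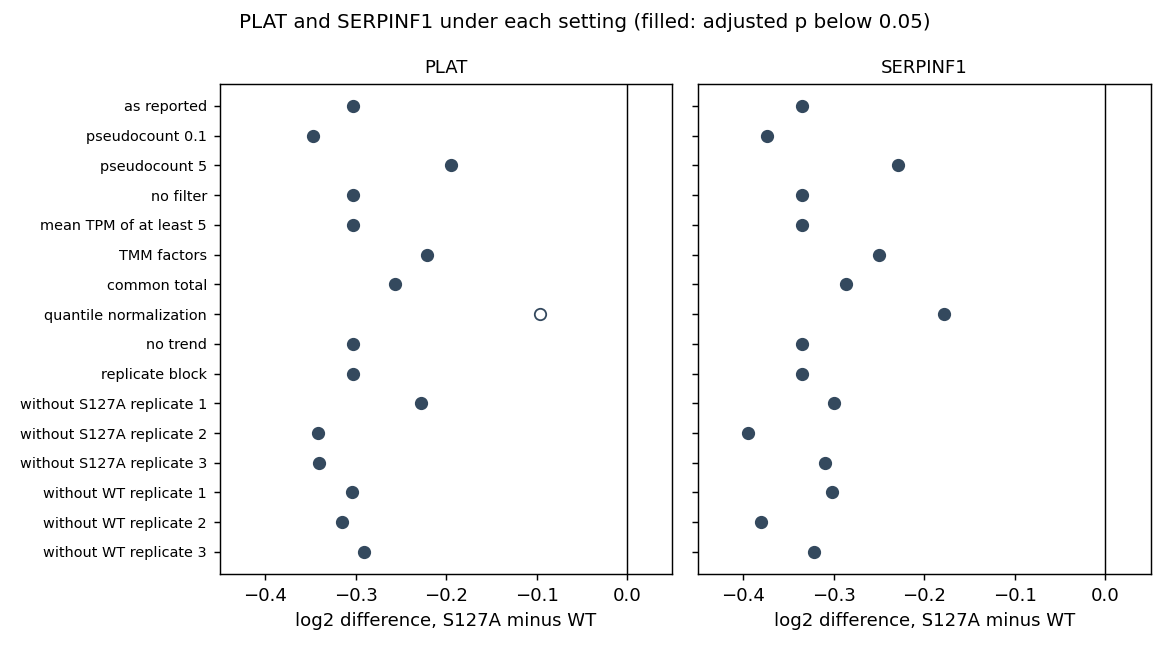
The log2 difference, S127A minus WT, of PLAT (left) and SERPINF1 (right) as reported and under 15 alternatives, with filled points where the adjusted p by limma was below 0.05. All points lie below 0, and the PLAT value of −0.10 with quantile normalization is the 1 open point.

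Promoter windows of the members were compared for shared motifs. RefSeq windows from 250 bases before to 50 bases after the start (GRCm38.p6) were at hand for PLAUR, SERPINB2, SERPINF1 and SERPINE2, so for 4 of the 6 members, and not for PLAU and PLAT. The 4 are shown because they set the members with higher values in S127A, PLAUR and SERPINB2, beside the others. SERPINF1 fell, and SERPINE2 was listed at 0 in 5 of the 6 libraries. SERPINB2 lay below 1 TPM in every library and was not tested. The motifs searched on both strands were AP-1 (TGANTCA, the same on both strands), a kB-type element (GGG, any pair of bases, TT, any base, CC) and the E-boxes CACGTG and CATGTG. Capitals mark each match, and no matches overlapped. The windows are PLAUR at chr7:24462233-24462532 on the plus strand, SERPINB2 at chr1:107511173-107511472 on the plus strand, SERPINF1 at chr11:75422574-75422873 on the minus strand and SERPINE2 at chr1:79858616-79858915 on the minus strand.
PLAUR: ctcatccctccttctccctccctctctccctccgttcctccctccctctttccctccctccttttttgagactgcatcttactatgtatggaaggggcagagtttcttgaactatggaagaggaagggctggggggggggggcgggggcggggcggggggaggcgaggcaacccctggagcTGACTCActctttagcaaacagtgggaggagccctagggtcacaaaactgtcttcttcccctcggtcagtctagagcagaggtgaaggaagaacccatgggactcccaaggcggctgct
SERPINB2: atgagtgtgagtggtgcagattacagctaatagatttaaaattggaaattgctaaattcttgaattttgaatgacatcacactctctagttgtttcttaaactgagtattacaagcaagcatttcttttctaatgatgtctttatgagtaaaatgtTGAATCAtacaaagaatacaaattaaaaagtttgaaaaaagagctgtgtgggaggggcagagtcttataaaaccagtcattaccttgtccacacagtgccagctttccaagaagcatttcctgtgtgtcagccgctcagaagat
SERPINF1: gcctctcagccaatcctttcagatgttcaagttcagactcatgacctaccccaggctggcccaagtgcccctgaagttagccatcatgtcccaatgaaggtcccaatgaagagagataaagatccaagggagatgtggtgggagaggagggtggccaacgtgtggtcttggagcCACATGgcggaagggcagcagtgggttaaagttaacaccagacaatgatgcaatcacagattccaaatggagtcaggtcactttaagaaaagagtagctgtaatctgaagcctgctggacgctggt
SERPINE2: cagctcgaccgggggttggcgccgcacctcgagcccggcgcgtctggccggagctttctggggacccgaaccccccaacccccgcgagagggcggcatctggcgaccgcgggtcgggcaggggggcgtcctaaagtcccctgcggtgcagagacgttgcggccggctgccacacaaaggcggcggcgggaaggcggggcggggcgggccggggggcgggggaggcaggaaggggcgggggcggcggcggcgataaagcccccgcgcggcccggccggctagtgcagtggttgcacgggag

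The PLAUR window held 1 AP-1 match, TGACTCA, that began 69 bases before the start. The SERPINB2 window held 1 AP-1 match as well, TGAATCA, 94 bases before the start. The window of a second annotated start overlaps it and held the same site. AP-1 matches stood in 7.79% of 32544 mouse promoter windows of the same length. The SERPINF1 window held 1 E-box match, CACATG, which is CATGTG on the other strand and stood in 14.2% of all windows. No window of the 4 held a match to the kB-type element, found in 4.78% of all windows, or to CACGTG, found in 7.17%. SERPINE2 held no match to any of the 4 motifs and had the richest window in G and C, 77.7% with 41 CpG sites, against 59.3% and 7 for PLAUR, 50.7% and 3 for SERPINF1 and 35.3% and 1 for SERPINB2. The median of all windows was 53.0% and 7 CpG sites. The SERPINE2 window ends at 79858915, inside the annotated span of the gene, which runs to 79861180. Its start is therefore not the outer end of that span. A match is a string of letters and not a shown binding site.

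The nearest listed protein-coding genes that do not overlap a member differed in either direction, did not pass or were too low to be tested. Of all tested genes 40.2% were higher and 49.8% lower in S127A. CADM4, a cell adhesion molecule of the immunoglobulin type, begins 6.1 kb after PLAUR. It stood at 4.18, 3.79 and 3.13 TPM in S127A, against 91.8, 92.7 and 92.4 TPM in WT. CADM4 therefore fell by 4.32 on the log2 scale (adjusted p = 8.83e-13 by limma), about as far as PLAUR rose. SMG9, of the nonsense-mediated decay machinery, lies 39.7 kb before PLAUR and fell by 0.20 (adjusted p = 0.00102 by limma). The PLAUR rise stood between 2 lower listed neighbours, though SMG9 lay close to the median of all tested genes, −0.12. Differences of the neighbours are not taken relative to that median. Beside PLAT, IKBKB, a kinase of the NF-kB pathway, rose by 0.17 (adjusted p = 0.00239 by limma) and AP3M2 gave −0.05 (adjusted p = 0.415 by limma). Beside SERPINF1, SMYD4 fell by 0.66 (adjusted p = 1.98e-06 by limma). SERPINF2, the plasmin inhibitor alpha-2-antiplasmin, lies 9.0 kb from SERPINF1 and reached at most 0.05 TPM in S127A and 0.06 TPM in WT. SERPINF1 thus had a neighbour that also fell and one near 0. Beside PLAU, CAMK2G fell by 0.18 (adjusted p = 0.00895 by limma), and VCL gave −0.03 (adjusted p = 0.411 by limma). SERPINE2 has MRPL44 12.8 kb away, which fell by 1.43 (adjusted p = 3.79e-10 by limma), and FAM124B on its other side reached at most 0.12 TPM in any library. Beside SERPINB2, and leaving out SERPINB10, whose span overlaps it, the nearest such genes were SERPINB7 and SERPINB8. They reached at most 0.44 TPM in any library.

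**Figure D4:**
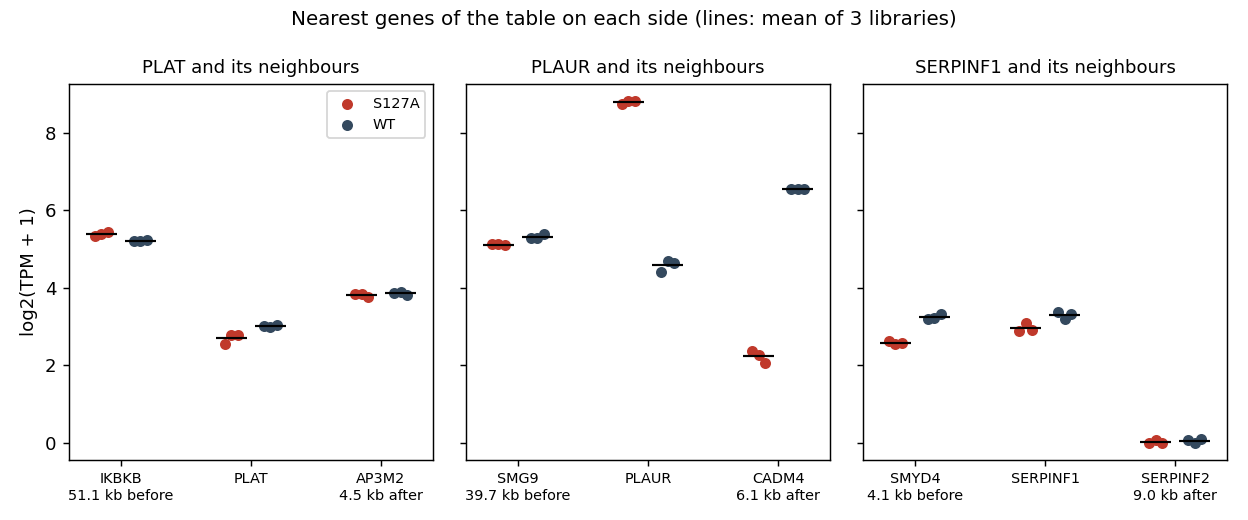
The log2(TPM + 1) of PLAT, PLAUR and SERPINF1 and of the nearest listed gene on each side, in the 3 S127A libraries (red) and the 3 WT libraries (dark blue), with lines at the group means and distances in kb under the names. PLAUR is higher in S127A while CADM4, 6.1 kb after it, is lower.

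Profiles over the 6 libraries, each centred on its own mean, were compared by Euclidean distance on the log2 scale, as a description. Nearest to PLAUR were CIART, a repressor of the circadian clock, at a distance of 0.134 and SIGIRR, an inhibitory receptor of the interleukin 1 family, at 0.166. CIART stood at 50.3 ± 2.16 TPM in S127A and 1.59 ± 0.266 TPM in WT (SD, n = 3 each). SIGIRR stood at 66.4 ± 3.13 TPM in S127A and 2.64 ± 0.212 TPM in WT (SD, n = 3 each). ABHD17A (0.0869) and BRK1 (0.0907) were nearest to PLAT, and ZNF335 (0.0789) and C1orf174 (0.0962) were nearest to SERPINF1.

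Of 63 other genes of the plasminogen system that are reported here, 58 stood in the table, of which 30 could be tested. All 30 passed, 21 higher and 9 lower in S127A. Of all tested genes 90.0% passed, 40.2% higher and 49.8% lower. The lists were chosen with earlier results of these data known, so the counts are a description. Their median log2 difference was 1.40, beside −0.12 for all tested genes. The same 30 passed in the same direction with TMM factors, with a common total and with quantile normalization. Melanocyte markers summed to at most 123 TPM in the S127A libraries where these values were read.

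The zymogen and its other activators stood near 0. Plasminogen (PLG), which the liver makes for the circulation, was listed above 0 in 1 library, at 0.04 TPM in S127A. None of the 6 genes of this list reached the mean of 1 TPM, and the highest was the membrane protease hepsin (HPN), at 0.21, 0.14 and 0.28 TPM in S127A, against 1.30, 1.22 and 1.36 TPM in WT. HPN is named after its values were seen.

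Transcripts of proteins that can hold plasminogen at the cell surface were abundant, and protein was not measured. Of 4 tested genes 3 were higher and 1 lower, beside 40.2% higher and 49.8% lower among all tested genes. ANXA2 and S100A10 form a surface complex that binds plasminogen and PLAT. ANXA2 stood at 1160, 1231 and 1197 TPM in S127A, against 358, 357 and 342 TPM in WT, and it rose by a log2 difference of 1.76 (SE 0.0317, adjusted p = 1.2e-12 by limma). S100A10 stood at 553, 568 and 555 TPM in S127A, against 226, 225 and 214 TPM in WT, and it rose by 1.33 (SE 0.0302, adjusted p = 7.5e-12 by limma). Both subunits thus rose, in every S127A library above every WT library, where 90.2% of the tested genes had no overlap in either direction. The plasminogen receptor PLGRKT rose by 0.21 (adjusted p = 0.000548 by limma). The glycolytic enzyme ENO1, which also binds plasminogen at the surface, stood at 1941, 2073 and 2027 TPM in S127A, against 6241, 6128 and 6163 TPM in WT, and fell by 1.62 (adjusted p = 1.91e-12 by limma). ENO1 has near-identical copies in the mouse genome, and reads shared with them make its value uncertain.

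Partners of the urokinase receptor and receptors that clear its ligands went both ways. Of 11 tested genes 7 were higher and 4 lower, with a median of 1.27, beside 40.2% higher and 49.8% lower among all tested genes. LRP1, the endocytic receptor that removes inhibitor complexes together with PLAUR, stood at 179, 188 and 195 TPM in S127A, against 10.96, 10.9 and 10.3 TPM in WT (log2 change 4.004, SE 0.0441, adjusted p = 4.06e-14 by limma). VLDLR, another endocytic receptor, stood at 59.3, 56.7 and 58.8 TPM in S127A, against 0.07, 0.04 and 0.03 TPM in WT. The caveolar protein CAV1 stood at 436, 431 and 434 TPM in S127A, against 3.79, 3.21 and 3.41 TPM in WT. All 3 were named for a small adjusted p, so levels well apart between the groups follow from that choice. Groups did not overlap for 90.2% of the tested genes. The integrin subunit ITGA3, which pairs with ITGB1 and associates with PLAUR, stood at 59.4, 63.3 and 64.3 TPM in S127A, against 1.96, 1.70 and 1.51 TPM in WT. Those that fell were 4 genes, chosen after seeing their values, ITGB3 (log2 change −3.65), IGF2R (−2.14), LRPAP1 (−0.36) and ITGAV (−0.19). ITGAV and ITGB3 form a vitronectin receptor, and vitronectin itself (VTN) was listed at 0 in all 6 libraries.

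The 7 other inhibitors of plasmin or its activators that are reported here, among them SERPINF2 and A2M, lay below the mean of 1 TPM and were not tested. They reached at most 1.19 TPM in S127A and 0.70 TPM in WT.

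Of 13 listed other serpins 3 were tested, 2 higher and 1 lower, beside 40.2% higher and 49.8% lower among all tested genes. SERPINB6, an intracellular serpin, stood at 707, 701 and 690 TPM in S127A, against 130, 134 and 129 TPM in WT (log2 change 2.41, adjusted p = 5.07e-14 by limma). Mouse has several near-identical Serpinb6 genes and none under this symbol in the annotation, so which of them the value covers is not known. SERPINB9, an inhibitor of granzyme B, rose by 1.10 (adjusted p = 3.08e-08 by limma), and mouse likewise has close copies of it. SERPINH1, the collagen chaperone HSP47, fell by 0.36 (adjusted p = 5.31e-07 by limma). The 10 others reached at most 0.34 TPM in S127A and 0.44 TPM in WT. Among them SERPINA1, SERPINA3, SERPINB1 and SERPINB3 also have no mouse gene under that symbol in the annotation. Which mouse genes those values cover is not known.

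Genes tied to the output of the system include matrix proteins, growth factors and proteases that plasmin can cleave, and the receptors of those growth factors. Of 12 tested genes 9 were higher and 3 lower, with a median of 2.44, beside 40.2% higher and 49.8% lower among all tested genes. Fibronectin (FN1) stood at 523, 549 and 541 TPM in S127A, against 32.3, 32.2 and 30.6 TPM in WT (log2 change 4.04, SE 0.0343, adjusted p = 1.2e-14 by limma). LTBP1, which tethers latent TGF-beta in the matrix, stood at 117, 123 and 126 TPM in S127A, against 0.25, 0.37 and 0.28 TPM in WT. MST1, the ligand of the MST1R receptor, stood at 85.6, 92.9 and 91.7 TPM in S127A, against 0.28, 0 and 0.08 TPM in WT, while MST1R itself reached at most 0.14 TPM. The collagenase MMP13 stood at 29.7, 26.3 and 28.5 TPM in S127A and was listed at 0 in the 3 WT libraries. These 4 genes were named for the smallest adjusted p of their list, so that the S127A libraries stood apart from WT follows from that choice. Groups did not overlap for 90.2% of the tested genes. The summed fibroblast markers were higher, with POSTN lower, in the same S127A libraries, and their part in these values was not tested. Those that fell were 3 genes, chosen after seeing their values, MET (log2 change −2.42), the receptor of HGF, and the matrix proteases MMP2 (−1.98) and MMP14 (−1.21).

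**Figure D5:**
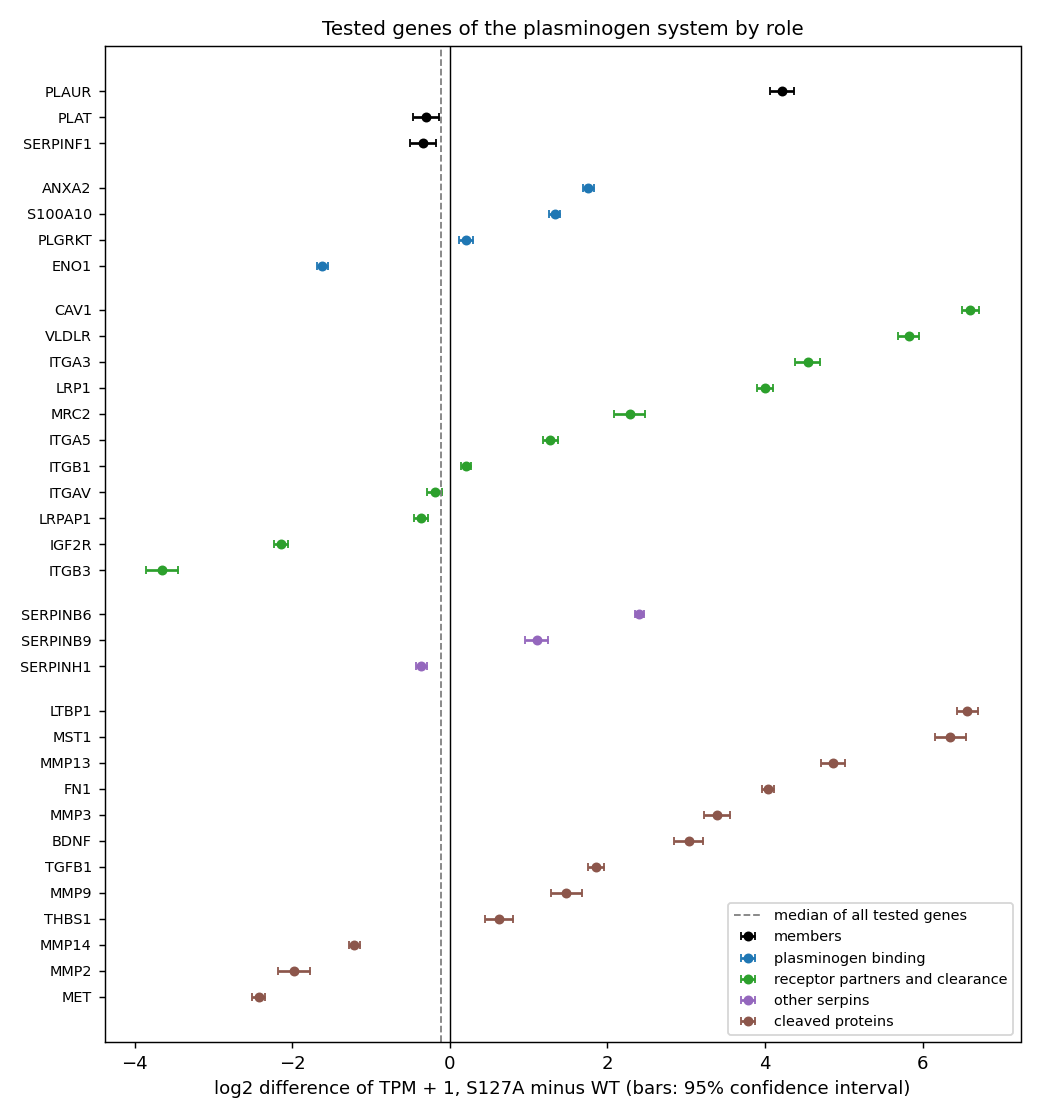
The log2 difference of TPM + 1, S127A minus WT, of the 3 tested members and the 30 tested other genes of the plasminogen system, grouped by role, with 95% confidence intervals by limma and a dashed line at the median of all tested genes, −0.12. PLAUR at 4.21 lies near LRP1 at 4.004, and ITGB3 at −3.65 is the lowest of those shown.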

How the data were processed

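RNA-seq covered 3 S127A and 3 WT libraries of TNFα-treated B16F10 cells, grouped by sample title. Per the file headers, the 1 table that the authors deposited holds TPM for each gene. Per the submitters' processing notes, reads were placed on mm10. Random hexamers primed the cDNA, per the labels' protocols. Not given in the sources used here are the aligner, the quantifier, the strand setting and the way mouse genes received human-style symbols. The listed genes summed to between 830745 and 864529 TPM a library. TPM keeps no depth, so depth and counting error are unknown, and the error used is the spread between 3 libraries.

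Genes with a mean of at least 1 TPM were tested on log2(TPM + 1) with limma 3.58.1 in R 4.3.3 (mean-variance trend, genotype as the only term, two-sided). P-values were adjusted by Benjamini-Hochberg over 10348 genes at 0.05. The fit was tested on simulated data in which far fewer genes changed than passed here. Its false calls under so broad a change were therefore not tested. Alternatives were pseudocounts of 0.1 and 5, no filter or a mean of 5 TPM, 3 scalings (TMM factors, a common total, quantile normalization), no trend, a replicate block, and fits without 1 library at a time.

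Named genes were all members, up to 4 tested genes with the smallest adjusted p in each role list, the 2 nearest profiles and the neighbouring listed genes. Some genes that the rule or lists name are not reported here, and the list counts leave them out. Where the text says so, genes were named after their values were seen. The members and lists were chosen with earlier results of these data known. Locations are from GENCODE M21 (mm10), promoter windows from RefSeq (GRCm38.p6). Figures were drawn with Python 3.11.15 and matplotlib 3.10.9.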

Additional observations from a re-analysis of the deposited data

How the results depend on the processing

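The number of genes past the threshold, 9315, ran from 9123 to 9211 when a library was left out. PLAUR passed in 15 of 15 alternatives with log2 differences of 4.004 to 4.31, and SERPINF1 passed in 15 of 15 with −0.40 to −0.18. PLAT passed in 14 of 15, with −0.34 to −0.23 when a library was left out, and did not pass with quantile normalization (−0.10, adjusted p = 0.226). The cause was not tested. The 30 tested other genes of the plasminogen system passed in the same direction in all alternatives, except that 25 of them reached a mean of 5 TPM and these 25 passed. The differences of the members with a mean below 1 TPM moved with the pseudocount. For PLAU, −0.81 became −2.49 with a pseudocount of 0.1 and −0.22 with 5, for SERPINB2, 0.37 became 1.77 and 0.085, and for SERPINE2, −0.05 became −0.36 with 0.1. With no filter PLAU (−0.81, adjusted p = 0.00038) and SERPINB2 (0.37, adjusted p = 0.0107) passed by limma, and SERPINE2 did not (adjusted p = 0.369). Leaving out a library gave −0.95 to −0.72 for PLAU, 0.25 to 0.45 for SERPINB2 and −0.08 to 0 for SERPINE2.

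Same-numbered libraries had correlations of 0.117, 0.0174 and 0.0279 in their deviations from the group means. Replicate 1 alone was above the set value of 0.1. S127A replicate 1 correlated best with WT replicate 1, but S127A replicate 2 did so with WT replicate 3, and S127A replicate 3 with WT replicate 2. The numbers were therefore not taken as pairs. A replicate block gave 9339 genes past the threshold and changed no call of a member (PLAUR 4.21, PLAT −0.30, SERPINF1 −0.33). The unknown depth limits what can be said of values below 1 TPM.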
